A study of Homo sapiens with 6 samples.

Results

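Menin is the protein product of MEN1 and a subunit of the MLL1 and MLL2 histone methyltransferase complexes. The genes described here are MEN1, the 2 methyltransferase genes KMT2A (MLL1) and KMT2B (MLL2), PSIP1, the core subunit genes ASH2L, RBBP5, WDR5 and DPY30, and HCFC1 and HCFC2. They were taken by gene name from the deposited gene tables, and all 10 were found, each as 1 row, among 62754 genes. All 10 also passed the filter for testing, a level of at least 1 TPM (transcripts per 1000000, scaled for length) in at least 3 of 6 libraries, which kept 14294 genes.

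MLL1 and MLL2 place methyl groups on lysine 4 of histone H3, a mark of promoters and enhancers. Their SET domains are weak enzymes alone and are activated by WDR5, RBBP5, ASH2L and DPY30, a core that every KMT2 and SETD1 complex shares. Menin binds the N-terminal part of MLL1 and MLL2 and joins them to LEDGF, the chromatin-binding protein made from PSIP1, and this assembly is known for keeping blood progenitor genes active.

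The cells were HUDEP-2, an established human erythroid line grown with erythropoietin (3 units per ml), stem cell factor (50 ng per ml), dexamethasone (1e-06 M) and doxycycline (1 µg per ml). They received a lentiviral shRNA against MEN1 (n = 3) or a non-targeting control shRNA (n = 3), puromycin (2 µg per ml) starting 24 h after infection and lasting 48 h, and were taken for poly(A) RNA sequencing at 72 h. Both groups therefore carry a lentiviral hairpin and went through the same drug selection. The series concerns the part of the MLL1 complex in the repression of fetal hemoglobin. One hairpin against MEN1, MEN1sh2, is named, in 1 cell line, so loss of menin and other effects of that hairpin cannot be told apart. The labels call the samples biological replicates and do not say whether they came from separate transductions, so the p-values measure the spread between these samples.

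The depth, read from the ratio of deposited coverage to FPKM in single-transcript genes, was 5565 to 10811 Mb of aligned sequence per library. The erythroid identity of the cells was checked on marker genes. In the control libraries HBB was at 30237 ± 2696 TPM and GATA1 at 277 ± 6.22 TPM (SD, n = 3). The megakaryocyte markers PF4 and PPBP and the B cell marker MS4A1 were listed at 0 in all 6 libraries. Other markers of non-erythroid cells were present in the controls. The megakaryocyte marker ITGA2B was at 33.8 ± 2.44 TPM and the stromal marker VIM at 302 ± 52.1 TPM. The stromal markers COL1A1 and COL1A2 reached 2.24 and 2.02 TPM in control replicate 2 and stayed below 1 TPM in the other libraries. The myeloid markers CD68 and LYZ were at 11.6 ± 1.07 and 1.48 ± 0.198 TPM. The summed level of 13 erythroid markers was 56874 to 63007 TPM in the control libraries and 98584 to 110740 TPM with the MEN1 shRNA, with 10 of the 13 genes higher and 0 lower in limma, against 22.1% higher and 31.5% lower over all tested genes. The summed level of 6 erythroid progenitor markers went the other way, from 762 to 829 TPM down to 308 to 352 TPM. All 5 tested progenitor markers, KIT, GATA2, CSF2RB, MYB and RUNX1, fell, and the remaining one, CD34, stayed below 1 TPM in every library. These markers moved together with every difference below, and their part in the results on the complex genes was not tested. In such bulk samples, fewer cells of a type and less RNA per cell cannot be told apart.

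The stretches of DNA just before the RefSeq start sites (GRCh38.p14) are shown for 3 of the genes, chosen because their transcripts behaved differently: HCFC2 and KMT2A rose with the MEN1 shRNA, while RBBP5 did not pass the test. Each is given up to the deposited gene start, 5′ to 3′ on the gene's strand. Capitals mark matches on either strand to the GC box (GGGCGG) or the GATA motif (GATAA).
HCFC2, chr12:104064281-104064530, plus strand: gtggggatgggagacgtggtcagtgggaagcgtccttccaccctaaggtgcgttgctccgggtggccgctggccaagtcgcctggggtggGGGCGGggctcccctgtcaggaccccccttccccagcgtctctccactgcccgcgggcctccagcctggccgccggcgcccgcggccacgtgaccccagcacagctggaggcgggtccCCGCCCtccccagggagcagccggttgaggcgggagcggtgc
KMT2A, chr11:118436242-118436455, plus strand: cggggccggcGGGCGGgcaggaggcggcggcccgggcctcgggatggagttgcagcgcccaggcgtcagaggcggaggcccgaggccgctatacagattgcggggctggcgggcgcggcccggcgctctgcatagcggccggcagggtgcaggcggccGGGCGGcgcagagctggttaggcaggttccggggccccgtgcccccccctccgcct
RBBP5, chr1:205122016-205122228, minus strand: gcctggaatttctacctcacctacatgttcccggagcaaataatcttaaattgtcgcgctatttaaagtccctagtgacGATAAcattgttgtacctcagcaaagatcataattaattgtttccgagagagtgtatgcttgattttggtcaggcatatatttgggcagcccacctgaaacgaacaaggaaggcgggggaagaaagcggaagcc
The upstream stretches of HCFC2 and KMT2A are rich in CpG, with 21 and 28 CpG in the printed 250 and 214 bases, against 8 in the 213 bases of RBBP5. The full 250-base RefSeq window of RBBP5, part of which lies beyond the gene start and is not printed, holds 12 CpG. Over 35116 RefSeq windows of 250 bases the median was 11 CpG, so RBBP5 is near the middle. Full windows of genes that did not pass as higher also held many CpG, 40 for KMT2B and 21 and 23 for PSIP1. Those of WDR5 held 2, 9, 23 and 39, and those of MEN1 18 and 15. A GC box match was present in 42.6% of those windows and a GATA match in 20.4%, so neither is rare. RefSeq windows were found for 7 of the 10 genes, 12 windows in all because MEN1, PSIP1 and WDR5 have more than 1 start. Among the 12, the GATA match occurred only in the RBBP5 window. The 5 GC box matches in a window upstream of the fourth WDR5 start, the 4 of KMT2B and the 3 of KMT2A were the highest counts. These are counts over full windows. That of KMT2A runs to position 118436491, past the gene start, so not all of its matches are in the printed bases. ASH2L, DPY30 and HCFC1 had no entry. A match is a description of the letters only.

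In the control libraries the 10 transcripts covered a wide range of TPM. TPM is scaled per length, so a comparison between genes depends on the transcript lengths that reads were assigned to. Deposited coverage gave another order: HCFC1 was at 221 to 342 reads per base, PSIP1 at 64.1 to 109 and DPY30 at 9.21 to 14.4. The order below and the sums and ratios between genes are given for TPM and carry this limit. PSIP1 was highest at 164 ± 6.53 TPM, followed by ASH2L (125 ± 6.85), DPY30 (86.2 ± 1.32), HCFC1 (72.3 ± 2.40) and WDR5 (59.5 ± 0.508). Below these came KMT2B (44.6 ± 2.48), MEN1 (39.3 ± 2.10), RBBP5 (30.3 ± 2.97), KMT2A (22.6 ± 0.930) and HCFC2 (5.91 ± 0.620; all SD, n = 3). No 2 neighbours in this order overlapped among the 3 control libraries. With the MEN1 shRNA, ASH2L passed PSIP1 to become the highest, KMT2B passed WDR5, and MEN1 went from seventh place to the lowest. KMT2A and RBBP5 were then the only neighbours whose libraries overlapped.

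**Figure D1:**
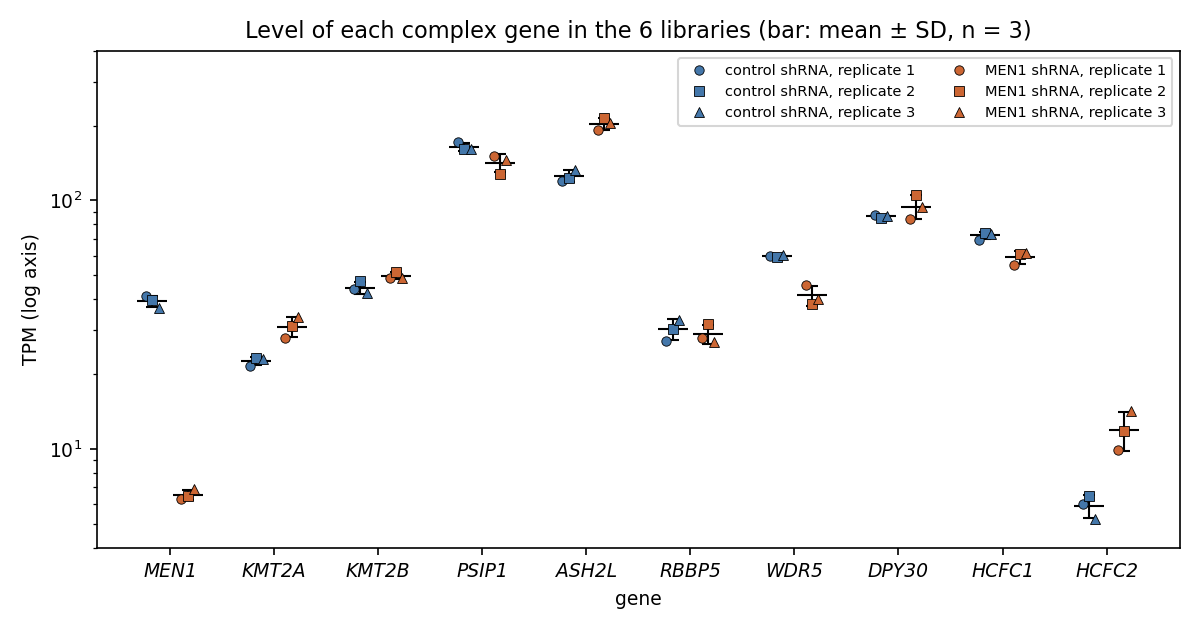
Level of each of the 10 genes in TPM on a log axis, with 1 point per library, the replicate number given by the point's shape, and bars for the mean and SD of 3 libraries. MEN1 drops from 37.1 to 41.2 TPM in the control libraries to 6.29 to 6.88 TPM, while ASH2L and HCFC2 sit clearly above their controls and WDR5 below.

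Of the 10 genes, 7 passed an adjusted p of 0.05 in limma on log2(TPM + 1), 3 higher (KMT2A, ASH2L and HCFC2) and 4 lower (MEN1, PSIP1, WDR5 and HCFC1). Among all tested genes 53.6% passed, 22.1% higher and 31.5% lower, so that the share of the complex genes is to be read against a background in which the majority of genes was called. The 3 libraries of one group lay entirely above those of the other in 8 of the 10 genes, 4 higher and 4 lower, against 61.8% of all tested genes (25.8% higher and 35.9% lower). The median difference of the 10 genes was 0.03 on the log2 scale and that of all tested genes was -0.07. The median size of the difference, whatever its direction, was 0.36 for the complex genes and 0.37 for all tested genes. Only MEN1 differed by 1 or more on this log2 scale, as did 12.1% of all tested genes.

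**Figure D2:**
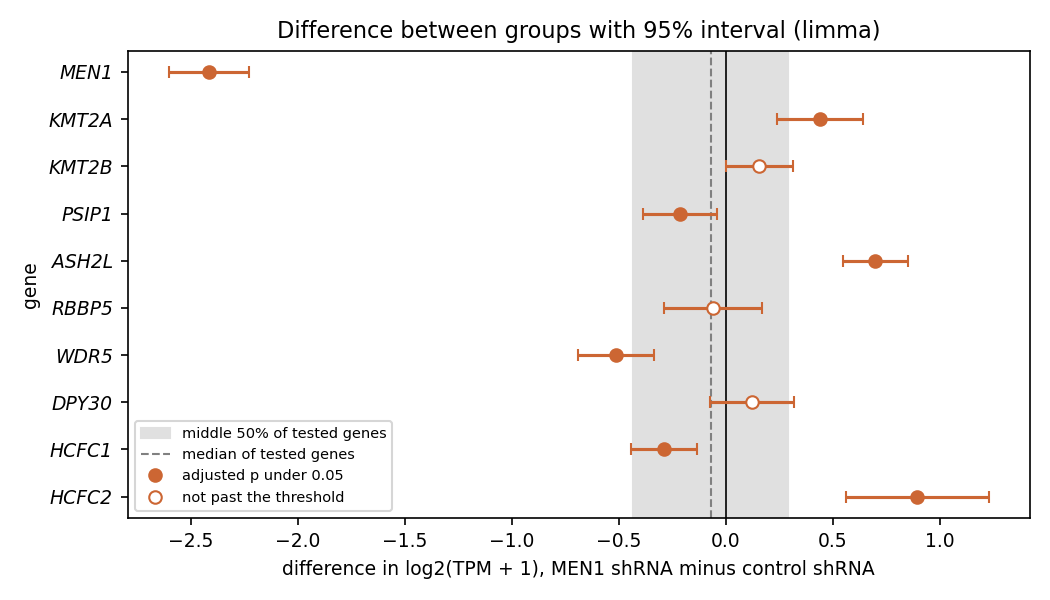
Difference in log2(TPM + 1) between MEN1 shRNA and control shRNA for each gene, with its 95% interval from limma; filled points passed an adjusted p of 0.05, the grey band holds the middle 50% of tested genes and the dashed line is their median. MEN1 lies at -2.42, far to the left of the other 9 genes, which run from -0.51 for WDR5 to 0.90 for HCFC2.

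MEN1 (ENSG00000133895, chromosome 11, 64803510 to 64811294, minus strand) was the target of the hairpin and checks the labels. Its level was 41.2, 39.6 and 37.1 TPM in the 3 control libraries, in the order of their replicate numbers, which all values below follow. With the MEN1 shRNA the corresponding values were 6.29, 6.44 and 6.88 TPM, so all knockdown libraries lay far below all controls and within a narrow range of each other. The remaining level was 16.6% of the control mean (log2 difference -2.42, 95% interval -2.61 to -2.23, limma adjusted p 8.5e-06), which ranked 30 by size of fall among the tested genes. No other gene row of the tables overlaps MEN1, and the ratio of its coverage to its FPKM was 0.567 in the control and 0.566 in the MEN1 shRNA libraries relative to single-transcript genes. That ratio depends on which transcript lengths the reads were assigned to, so on this measure the mix of transcript lengths of MEN1 did not differ beyond the spread (exact permutation p 0.8, 2-sided).

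The pattern of MEN1 across the 6 libraries was matched most closely by CRYBG1, ZFP36L2 and FRAT2, out of 9898 named genes with a mean of at least 5 TPM. Likeness was the Euclidean distance between log2(TPM + 1) values taken relative to the control mean, which was 0.31, 0.36 and 0.41 for the 3 genes. CRYBG1 went from 80.2 ± 1.81 to 13.4 ± 1.22 TPM. ZFP36L2, which encodes an RNA-binding protein that promotes mRNA decay, went from 317 ± 34.9 to 66.0 ± 2.56 TPM. FRAT2, which encodes a GSK-3-binding protein of Wnt signalling, went from 33.4 ± 2.72 to 6.34 ± 0.453 TPM. With 2 groups of 3 libraries, such closeness mostly says that the sizes of the falls are alike.

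The methyltransferases that menin binds were both at higher levels with the MEN1 shRNA, and the difference passed the test for KMT2A. KMT2A (ENSG00000118058, chromosome 11, 118436456 to 118526832, plus strand) was at 21.5, 23.2 and 23.0 TPM in the controls and at 28.1, 31.2 and 33.9 TPM with the MEN1 shRNA. The groups did not overlap, and the knockdown libraries were more spread than the controls (log2 difference 0.44, 95% interval 0.24 to 0.64, limma adjusted p 0.0038). KMT2B (ENSG00000272333, chromosome 19, 35717973 to 35738880, plus strand) was at 43.95, 47.3 and 42.5 TPM in the controls and at 48.9, 51.7 and 48.8 TPM with the MEN1 shRNA. These groups did not overlap either, but the highest control and the lowest knockdown library were close, and the difference of 0.16 (95% interval 0.0016 to 0.31) had an adjusted p of 0.083 in limma. KMT2B passed the threshold when the TPM were rescaled so that the typical gene did not change: it was 0.24 with median-of-ratios scaling (adjusted p 0.014) and 0.23 with quantile normalization (adjusted p 0.018).

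The summed KMT2A and KMT2B level was 65.5 to 70.6 TPM in the controls and 77.0 to 82.9 TPM in the knockdown libraries, 1.203 times the control mean. KMT2B was the more abundant of the pair in every library. The ratio of KMT2A to KMT2B was 0.490, 0.491 and 0.541 in the controls and 0.574, 0.603 and 0.695 with the MEN1 shRNA. It was higher in every knockdown library (exact permutation p 0.1, 2-sided). That p is the smallest that 3 libraries against 3 can give, so none of the ratios described here could pass 0.05; 9 were compared, and the adjusted p was 0.11 for each of the 8 whose groups did not overlap. A gene row that overlaps KMT2A on the same strand (ENSG00000285827) reached 3.65 TPM in control replicate 2 and stayed below 1 TPM in the other libraries.

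The genes nearest to KMT2A in pattern were CEP120, TNIK and STAG1, at distances of 0.060, 0.062 and 0.072. CEP120, which encodes a centrosome protein, went from 13.4 ± 0.750 to 18.3 ± 1.54 TPM. TNIK, which encodes a kinase of the Wnt and JNK pathways, went from 20.3 ± 1.15 to 28.5 ± 2.86 TPM. STAG1, a cohesin subunit gene, went from 18.5 ± 0.769 to 25.7 ± 3.28 TPM. All 3 had their lowest knockdown value in replicate 1 and their highest in replicate 3, as KMT2A did. They were picked for likeness over these same libraries, so a shared order comes with the choice.

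The level of MEN1 relative to its binding partners fell further than MEN1 alone. The ratio of MEN1 to the sum of KMT2A and KMT2B was 0.585 ± 0.038 in the controls and 0.081 ± 0.0028 with the MEN1 shRNA. Because the sum of the partners was higher while MEN1 was lower, this ratio dropped to 0.138 times its control value. A ratio of genes within a library does not depend on how that library was scaled. The values in the knockdown libraries, 0.082, 0.078 and 0.083, lay far below the lowest control, 0.561 (exact permutation p 0.1, 2-sided).

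PSIP1 encodes LEDGF, which carries menin and MLL1 to chromatin marked by methylated H3 lysine 36. PSIP1 (ENSG00000164985, chromosome 9, 15464066 to 15510995, minus strand) was at 172, 161 and 160.4 TPM in the controls and at 151, 128 and 145 TPM with the MEN1 shRNA. All knockdown libraries were below all controls, and the fall was small (log2 difference -0.22, 95% interval -0.39 to -0.043, limma adjusted p 0.041). The call was fragile: it was lost in 10 of 16 alternatives, among them median-of-ratios scaling (-0.13, adjusted p 0.20) and the omission of MEN1 shRNA replicate 2 (-0.15, 0.11), MEN1 shRNA replicate 3 (-0.24, 0.064) or control replicates 1 (-0.18, 0.12), 2 (-0.23, 0.074) and 3 (-0.23, 0.070). Because MEN1 fell far more, PSIP1 went from 4.19 ± 0.134 to 21.7 ± 2.13 times the MEN1 level. SNAPC3, which overlaps PSIP1 on the opposite strand, stood at 43.8 ± 4.59 TPM in the controls and 26.1 ± 1.78 TPM in the knockdown libraries. Whether the quantification used strand is not given in the sources used here, so the division of reads between these 2 genes was not tested. HDGFL2, a relative of PSIP1 that was singled out after its values were seen, rose from 92.2 ± 5.06 to 119 ± 8.90 TPM (log2 difference 0.37, limma adjusted p 0.0045).

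The 4 core subunits, which the cell uses in all KMT2 and SETD1 complexes, did not move together. ASH2L rose, WDR5 fell, and RBBP5 and DPY30 did not pass the test. ASH2L, which holds the core on the methyltransferase together with RBBP5 (ENSG00000129691, chromosome 8, 38105493 to 38144076, plus strand), was at 120, 123 and 133 TPM in the controls and at 192, 214 and 205 TPM with the MEN1 shRNA. Its lowest knockdown library was well above its highest control, and the level was 1.63 times that of the controls (log2 difference 0.70, 95% interval 0.54 to 0.85, limma adjusted p 0.00012). In absolute terms this was the largest increase of the 10 genes, 78.6 TPM. STAR, which overlaps ASH2L on the opposite strand, was at most 2.82 TPM in any library.

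WDR5, which reads the Win motif of MLL1 and docks the core to it (ENSG00000196363, chromosome 9, 134135365 to 134159968, plus strand), moved the other way. It was at 59.5, 59.0 and 60.0 TPM in the controls, the tightest of the 10 genes, and at 45.8, 38.4 and 40.3 TPM in the knockdown libraries. The knockdown libraries were all lower and more spread, and the fall was 30.3% of the control mean (log2 difference -0.51, 95% interval -0.69 to -0.33, limma adjusted p 0.00099). Relative to the mean of ASH2L, RBBP5 and DPY30 in the same library, WDR5 went from 0.740 ± 0.024 to 0.384 ± 0.063, with no overlap between the groups (exact permutation p 0.1, 2-sided).

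RBBP5, the scaffold subunit that contacts WDR5, ASH2L and the SET domain (ENSG00000117222, chromosome 1, 205086142 to 205122015, minus strand), was at 27.2, 30.5 and 33.2 TPM in the controls and 28.0, 31.9 and 27.0 TPM with the MEN1 shRNA. The groups overlapped, with 1 knockdown library just below all controls and 1 control above all knockdown libraries, and the 95% interval of the difference ran from -0.29 to 0.17 (log2 difference -0.06, limma adjusted p 0.62). Its sign turned with 3 other scalings and without control replicate 3, always within 0.05 of 0. DPY30, the smallest subunit, which binds the C-terminal part of ASH2L (ENSG00000162961, chromosome 2, 31867809 to 32039805, minus strand), was at 87.4, 84.8 and 86.3 TPM in the controls and at 83.8, 105 and 94.3 TPM with the MEN1 shRNA. Replicate 1 lay just below all controls and replicates 2 and 3 above them. The knockdown group thus straddled the control range (log2 difference 0.12, 95% interval -0.072 to 0.32, limma adjusted p 0.25). Without MEN1 shRNA replicate 1 the difference of DPY30 was 0.20 and passed the threshold (adjusted p 0.037).

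The deposited row of DPY30 overlaps most of MEMO1 on the same strand. MEMO1 fell from 38.04 ± 5.63 to 17.8 ± 1.25 TPM (log2 difference -1.04), while DPY30 did not pass the test. How reads in the shared span were divided between both was not tested.

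Set against the methyltransferases, the core subunits shifted in both directions. ASH2L went from 1.87 ± 0.146 to 2.52 ± 0.059 units per unit of KMT2A plus KMT2B. WDR5 went from 0.887 ± 0.044 to 0.515 ± 0.070 and RBBP5 from 0.452 ± 0.048 to 0.358 ± 0.029, with no overlap between groups in any of the 3 ratios (exact permutation p 0.1 each, 2-sided). The DPY30 ratio, 1.28 ± 0.073 and 1.16 ± 0.089, overlapped between the groups (exact permutation p 0.2). So WDR5 stood close to the summed methyltransferases in the controls and well below them in the knockdown libraries. The sum of the 4 core transcripts was 294 to 312 TPM in the controls and 350 to 389 TPM in the knockdown libraries, with ASH2L higher by 78.6 TPM and WDR5 lower by 18.0 TPM on average.

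**Figure D3:**
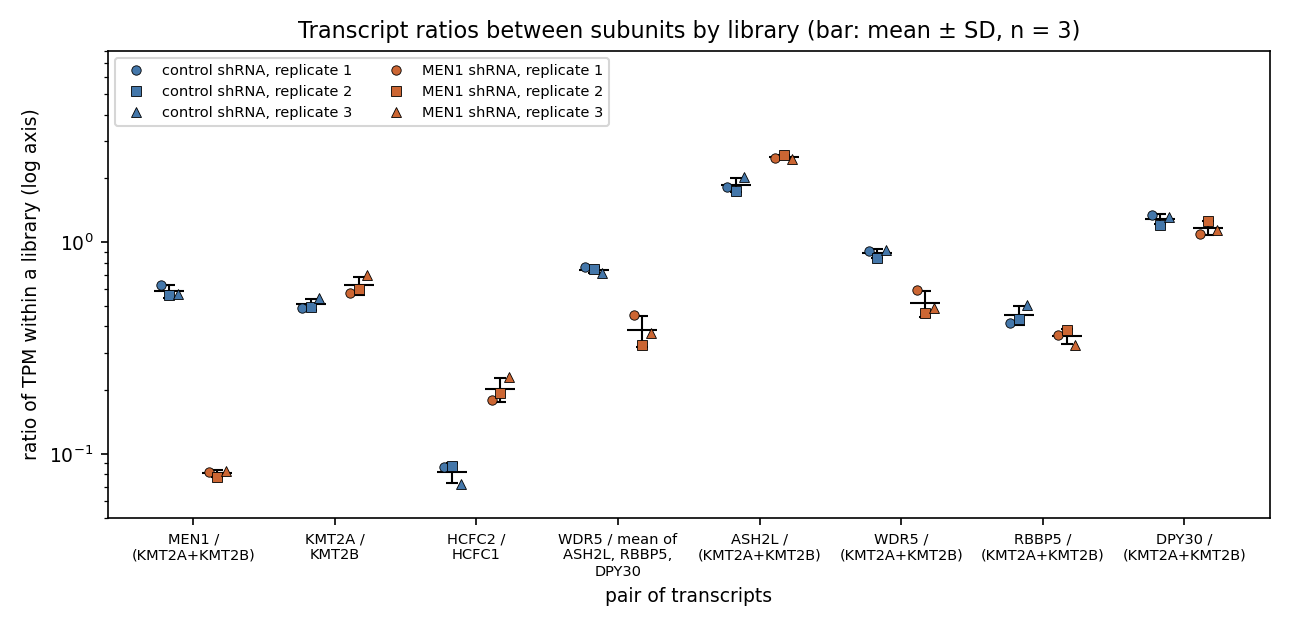
Ratios of TPM between subunits within each library on a log axis, 1 point per library, with the mean and SD of 3 libraries as bars. The 3 knockdown libraries lie below all controls for MEN1, WDR5 and RBBP5, above them for KMT2A over KMT2B, HCFC2 over HCFC1 and ASH2L; for DPY30 the groups overlap, with 1 of the 3 knockdown libraries inside the control range and the others below it.

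ASH2L was most like CD164, ASB1 and CYB5D2 in its pattern over the 6 libraries, at distances of 0.057, 0.072 and 0.080. CD164, a sialomucin of blood progenitors and erythroid cells, went from 311 ± 11.8 to 507 ± 24.4 TPM. ASB1, a substrate receptor gene of ubiquitin ligases, went from 11.5 ± 0.731 to 19.1 ± 0.753 TPM, and CYB5D2, which encodes a heme-binding protein, from 4.91 ± 0.199 to 8.58 ± 0.273 TPM.

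The host cell factor genes HCFC1 and HCFC2 encode related proteins that join the MLL1 and MLL2 complexes, and they moved in opposite directions. HCFC1 (ENSG00000172534, chromosome X, 153947557 to 153971818, minus strand), which also links chromatin enzymes to many promoters in cycling cells, was at 69.6, 74.2 and 73.0 TPM in the controls and at 54.9, 60.8 and 61.2 TPM with the MEN1 shRNA. The groups did not overlap (log2 difference -0.29, 95% interval -0.45 to -0.14, limma adjusted p 0.0075). HCFC2 (ENSG00000111727, chromosome 12, 104064531 to 104106524, plus strand), whose upstream sequence is printed above, was at 6.01, 6.47 and 5.24 TPM in the controls and at 9.87, 11.8 and 14.2 TPM in the knockdown libraries. By TPM it was the lowest of the 10 transcripts in the controls, and every knockdown library lay above every control. The mean rose 2.02 times (log2 difference 0.90 on the log2(TPM + 1) scale, 95% interval 0.56 to 1.23, limma adjusted p 0.0013), and its coverage was 8.37 to 23.1 reads per base.

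The ratio of HCFC2 to HCFC1 was 0.086, 0.087 and 0.072 in the controls and 0.180, 0.194 and 0.231 with the MEN1 shRNA. It rose 2.46 times without overlap (exact permutation p 0.1, 2-sided). HCFC1 nevertheless stayed the more abundant of both, and the summed level of the pair was 75.6 to 80.7 TPM in the controls and 64.8 to 75.4 TPM in the knockdown libraries. HCFC1 was also the only gene of the 10 whose coverage-to-FPKM ratio did not overlap between groups, 0.954 ± 0.012 against 0.920 ± 0.019 (exact permutation p 0.1, 2-sided), and the nearest libraries of the groups were both at 0.941. In the other 9 genes it overlapped. Over all tested genes whose ratio differed from 1 in any library, it was apart in 16.1%. That share counted only groups separated by a small margin, which HCFC1 did not reach.

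**Figure D4:**
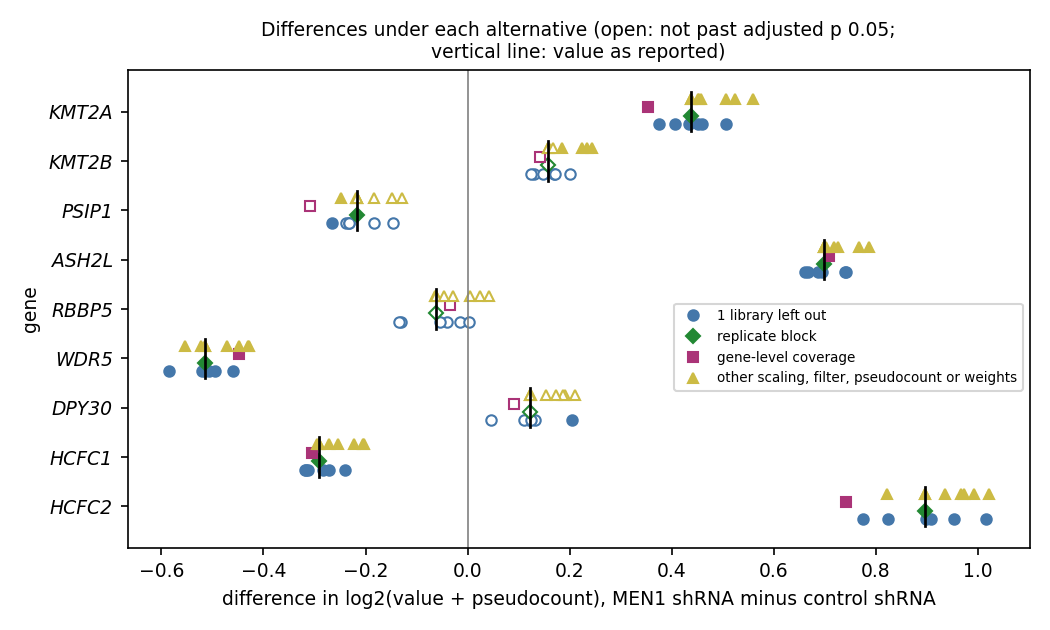
Log2 difference of the 9 genes other than MEN1 under each alternative processing; filled points passed an adjusted p of 0.05, open points did not, and the vertical line is the value given in the text. KMT2A, ASH2L, WDR5, HCFC1 and HCFC2 keep filled points on 1 side of 0 throughout. KMT2B, PSIP1 and DPY30 have filled and open points, and RBBP5 straddles 0.

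Other genes of H3 lysine 4 methylation were compared by lists, whose counts are to be read against the 53.6% of all tested genes that were called, 22.1% higher and 31.5% lower. Under median-of-ratios scaling 49.5% of all calls were higher, against 41.2% without it, so the split over all genes moved with the scaling as well. Of 12 subunits of the other KMT2 and SETD1 complexes, 2 were higher, 4 lower and 6 did not pass (median log2 difference 0.003), a share called that is close to the 53.6% of all tested genes. BOD1 went from 15.1 ± 1.94 to 7.33 ± 0.013 TPM and PAGR1, of the MLL3 and MLL4 complexes, from 14.9 ± 0.780 to 10.2 ± 0.966 TPM; BOD1L1 (-0.32) and SETD1A (-0.26) also fell. The histone H3 lysine 27 demethylase gene KDM6A (0.38) and the CpG-binding SETD1 subunit gene CXXC1 (0.24) rose. The split depended on the scaling, with 4 higher and 3 lower under median-of-ratios scaling, under rescaling without globin and mitochondrial genes and under quantile normalization, and 3 genes passed without MEN1 shRNA replicate 2 or without control replicate 3. KMT2C and KMT2D, the MLL3 and MLL4 genes, did not pass (27.2 ± 1.49 against 30.4 ± 0.895 TPM and 23.6 ± 3.17 against 28.0 ± 4.33 TPM).

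Of 20 genes for processing and cofactors of MLL1, 3 were higher, 9 lower and 8 did not pass (median -0.15), with 53.6% called over all tested genes. TASP1, the protease that cleaves MLL1 and MLL2 into their mature fragments, fell from 9.21 ± 0.794 to 4.96 ± 0.087 TPM (log2 difference -0.77, limma adjusted p 0.000525). SENP3, a SUMO protease, fell most, from 67.9 ± 5.60 to 27.7 ± 3.34 TPM. The ATPase genes RUVBL1 (125 ± 0.789 to 71.4 ± 7.63 TPM) and RUVBL2 (582 ± 28.0 to 375 ± 9.26 TPM) also fell. The 3 that rose were CREBBP (0.44), HDGFL2 and OGT (0.36), the last encoding the enzyme that modifies and cleaves HCFC1. This list was split 7 higher and 7 lower under median-of-ratios scaling and under rescaling without globin and mitochondrial genes, and 5 higher and 7 lower under quantile normalization.

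Of 13 genes of MLL fusion partners and transcription elongation, 1 was higher, 5 lower and 7 did not pass (median -0.03), a share called no larger than the 53.6% of all tested genes. MLLT1 went from 48.5 ± 2.52 to 23.0 ± 3.52 TPM, MLLT3 from 264 ± 9.73 to 133 ± 22.0 TPM, ELL from 29.8 ± 1.48 to 15.5 ± 1.51 TPM and AFF1 from 64.2 ± 4.24 to 39.0 ± 2.28 TPM. The fifth was MLLT10 (-0.41). AFF4, which like AFF1 is a scaffold of the super elongation complex, rose from 26.8 ± 0.984 to 47.6 ± 6.32 TPM (0.80). CDK9 and its cyclin CCNT1 did not pass, at 28.8 ± 0.120 against 28.7 ± 0.599 TPM and 27.3 ± 0.730 against 27.5 ± 0.366 TPM. With median-of-ratios scaling the counts were 3 higher and 5 lower and the median turned to 0.060.

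The 7 demethylases included KDM1A, KDM5A, KDM5B and KDM5C, which act on H3 lysine 4. The others were KDM2A, KDM2B and RIOX1, whose action on that residue is less established. Of the 7, 5 were lower, 0 were higher and 2 did not pass (median -0.58). Of all tested genes 31.5% were lower and their median was -0.07. KDM1A and the KDM5 genes ran from -0.58 to 0.07, and the others from -0.88 to -0.59. Among KDM1A and the KDM5 genes only KDM1A and KDM5B passed as lower, while KDM2A, KDM2B and RIOX1 all did. KDM2B went from 26.4 ± 1.04 to 14.2 ± 1.82 TPM, RIOX1 from 20.2 ± 0.584 to 10.6 ± 1.72 TPM, KDM2A from 39.5 ± 3.67 to 25.8 ± 1.12 TPM and KDM5B from 36.9 ± 1.82 to 24.4 ± 2.03 TPM. KDM1A (LSD1) fell by less, from 158 ± 13.4 to 133 ± 8.18 TPM (-0.24, limma adjusted p 0.031). KDM5A and KDM5C, at 28.4 ± 1.58 against 29.8 ± 2.08 TPM and 58.0 ± 2.14 against 55.1 ± 0.579 TPM, did not pass. Under median-of-ratios scaling 4 were lower, and none of the scalings tried gave a gene of this list that was higher and past the threshold.

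Of 18 textbook targets of menin and MLL1, 9 stayed below 1 TPM in every library, among them HOXA5 and HOXA7, listed at 0 throughout, and HOXA9, HOXA10 and MEIS1, the targets best known from leukemia. Of the 9 tested, 3 were higher, 5 lower and 1, PBX3, did not pass (median -0.42), where 53.6% of all tested genes were called. MYC fell from 232 ± 6.52 to 74.1 ± 15.4 TPM and TERT, the telomerase reverse transcriptase gene, from 6.49 ± 0.399 to 0.618 ± 0.615 TPM. JMJD1C (-0.54), HMGA2 (-1.07) and CDK6 (-0.42) fell too. The cell cycle inhibitor genes CDKN1B (1.04) and CDKN2C (0.24), known as genes that menin and MLL1 keep active in endocrine cells, were higher, as was CCNA2 (0.24), the cyclin A2 gene. These targets therefore moved both ways, and the sign of their median depended on the filter: it was 0.19 over the 7 with a mean of 5 TPM or more.

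**Figure D5:**
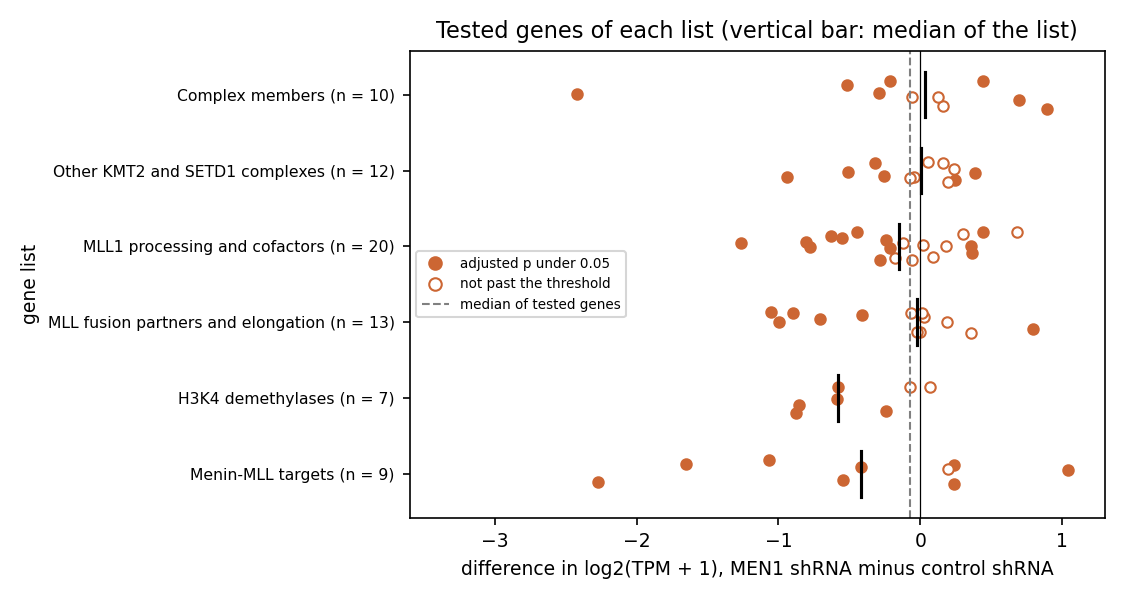
Log2 difference of each tested gene in the complex and in 5 lists of related genes; filled points passed an adjusted p of 0.05, vertical bars are list medians and the dashed line is the median of all tested genes. The demethylase list is the only one of the 6 with no filled point above 0, and its median is -0.58.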

How the data were processed

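Per the labels' protocols, poly(A)-selected RNA was made into directional libraries. The submitters' processing notes name FastQC, Trimmomatic, STAR 2.7.1a, Picard 2.20.4, StringTie 2.0.4 and the build hg38, with no role or order. In the TPM columns the authors deposited, every library totals 1000000, and the level of any gene therefore depends on the abundant globin transcripts. The deposited FPKM values are per kilobase and per 1000000 fragments, and the deposited coverage (signal per base) is not scaled for depth, per the file headers. Residues just below 0 in 2 genes of control replicate 2 were set to 0. No read counts were used, so no count model was fitted. Of 62754 gene identifiers, 58261 are in GENCODE v29 (GRCh38), and all 10 members overlap their position there.

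Values were transformed to log2(TPM + 1), which understates changes of low genes, and fitted with limma 3.58.1 in R 4.3.3 (trend, 2-sided, Benjamini-Hochberg over 14294 genes, threshold 0.05). All adjusted p-values of genes are from limma. The fit was tested on simulated data in which far fewer genes changed than were called here, so that test does not cover this setting. Ratios between subunits were compared with exact permutation tests in Python 3.11.15. Genes were named by rule: the 10 members, for MEN1, KMT2A and ASH2L the 3 genes nearest in pattern, from each list the 4 called genes of smallest adjusted p at most, and genes overlapping a member. Others were named after their values were seen. The members and lists were chosen with earlier results of these data known.

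Alternatives were a pseudocount of 0.1, other filters (none, or a mean TPM of 5 or more), FPKM, 3 other scalings, array weights, a replicate block and leaving out each library; gene-level coverage was added after seeing the data.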

Additional observations from a re-analysis of the deposited data

How the results depend on the processing

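Of 160 comparisons of a complex gene with an alternative, 141 kept direction and side of the threshold, and MEN1, KMT2A, ASH2L, WDR5, HCFC1 and HCFC2 did so in all 16 each. KMT2B passed with FPKM (0.18), median-of-ratios scaling (0.24), rescaling without globin and mitochondrial genes (0.22) and quantile normalization (0.23). PSIP1 did not pass without a filter (-0.22, as more genes were tested), with FPKM (-0.18), median-of-ratios scaling (-0.13), rescaling without globin and mitochondrial genes (-0.15) or gene-level coverage (-0.31), an alternative chosen after seeing the data. RBBP5, never past the threshold, turned to 0.023, 0.0044 and 0.042 with median-of-ratios scaling, that rescaling and quantile normalization. The cause of these shifts was not tested. With 1 library left out, the log2 differences ran from -0.27 to -0.15 for PSIP1, -0.13 to 0.0033 for RBBP5 and 0.045 to 0.20 for DPY30, and 3 to 6 genes of the other KMT2 and SETD1 complexes passed. The number of complex genes past the threshold was 6 to 8 throughout, and that of all genes 6345 to 8033. For the pairing check, each library's departures from its group mean were correlated with those of the same-numbered library of the other group (0.017, -0.027 and -0.012). Of the 3, 1 correlated best with its own number. This check showed no pairing by number, but with 3 libraries per group it cannot exclude a shared preparation. With the replicate block 7012 genes passed in place of 7657, and the same side of the threshold held for all 10 complex genes (KMT2A 0.44, adjusted p 0.0078; PSIP1 -0.22, adjusted p 0.043). The lowest coverage of HCFC2 was 8.37 reads per base, in a control library, and that of MEN1 was 9.96, in a MEN1 shRNA library. DPY30 went down to 8.23, in a MEN1 shRNA library. These values also depend on the assigned transcript lengths.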
